A study of Mus musculus with 4 samples.

Results

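Some transcription in a cell comes from stretches of the genome that carry no gene name. The deposited RNA-seq comparison of Nd1 and control mature olfactory sensory neurons lists 28168 loci, and 4724 of them have a dash in place of a gene symbol. Of these, 4362 shared no base with any locus that has a symbol, and these 4362 loci are described here. They were selected by position and label alone, so that expression had no part in the choice. The other 362 unnamed loci overlapped a named one and serve as a comparison, as do the 23444 loci with a symbol. All coordinates are on mouse genome build mm9, as the authors' table gives them.

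The RNA came from fluorescence-sorted neurons of dissociated olfactory epithelium, in 4 libraries of polyadenylated RNA. Every mouse carried OMP-IRES-GFP+/-, the reporter that marks mature olfactory sensory neurons. Both Nd1 libraries were Nd1+/- with OMP-IRES-tTA+/-, so that the Nd1 transgene, which encodes double-stranded RNA, was present together with the tTA driver from the Omp locus. The control libraries each lacked 1 of these parts, and they lacked different ones: control replicate 1 was Nd1+/- with OMP-IRES-tTA-/-, and control replicate 2 was Nd1-/- with OMP-IRES-tTA+/-. The mice of replicate 1 in each group were 212 days old, those of replicate 2 were 87 days. How many mice entered a library is not stated, and the table holds 1 FPKM value per group (fragments scaled by transcript length and by library size), so that no spread between libraries can be given. Called means here a q-value under 0.05 in the authors' deposited table, and rose and fell are used of called loci alone.

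Unnamed loci in an assembled transcriptome are of several kinds. A promoter rich in CG dinucleotides often starts transcription in both directions, which leaves RNA from the stretch just upstream of a gene. Other unnamed loci are long noncoding RNAs, unannotated ends of known genes, repeats, pseudogenes, or the genes of the mitochondrial genome where the annotation used holds none. Each mature olfactory sensory neuron expresses a single odorant receptor gene, and these genes lie in clusters that also hold pseudogenes and unannotated receptors.

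Close to named loci, the unnamed loci lay mostly on the promoter side. Of 256 that lay under 1 kb from the nearest named locus, 220 could be placed by the gene's strand, which was taken by symbol from the GENCODE M21 annotation. Of these 220, 192 (87.3%) lay upstream of the gene, and among those the authors tested it was 101 of 107 (94.4%). Among tested named loci with another named locus under 1 kb away, 2225 of 3724 (59.7%) lay upstream of it. At 1 to 5 kb 138 of 362 placed unnamed loci (38.1%) lay upstream, and among the tested ones 34 of 61 (55.7%). The table gives no strand for the unnamed loci themselves, so that transcription away from the gene and transcription into it cannot be told apart.

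The promoters next to these loci were rich in CG dinucleotides. For 76 of the 99 genes with a tested unnamed locus under 1 kb upstream, RefSeq (GRCm38.p6) gave a promoter of 300 bases, 250 before and 50 after the start, that lay within 1 kb of the gene's start in GENCODE M21. Their median was 26 CG dinucleotides, and 90.8% held at least 10. Over all 17277 promoters placed in this way and kept (those of 1 chromosome were left out) the median was 13 and the share 57.6%. Against the more similar background of tested named loci other than odorant receptors (8948 promoters), the median was 21 and the share 83.3%, closer to those of the 76. The interferon response element, searched as GAAANNGAAA on both strands, was in 0 of the 76. It was in 2.94% of the 8948 and in 3.21% of all 17277, so that it is rare in both backgrounds. The 0 of 76 is therefore not read as a lack, and no match says only that these letters are not in this window.

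The promoters of 3 of these genes are shown, because the unnamed loci upstream of these genes had the largest rises among those of at least 1 FPKM with a promoter placed as above. They are the promoters of Endov (an endonuclease that acts on inosine in RNA, listed in the table under its older symbol A730011L01Rik), Dnmt3a (a DNA methyltransferase) and Camkk1 (a kinase that activates calmodulin-dependent kinases). The unnamed locus upstream of Endov had 10.1 FPKM in control and 32.5 FPKM in Nd1. That upstream of Dnmt3a had 2.40 FPKM in control and 7.41 FPKM in Nd1. That upstream of Camkk1 had 0.621 FPKM in control and 1.81 FPKM in Nd1. All 3 rose, and all 3 promoters are on the plus strand, at chromosome 11, 119491097 to 119491396, at chromosome 12, 3806730 to 3807029, and at chromosome 11, 73018738 to 73019037, on GRCm38.p6. Capitals mark the CG dinucleotides, of which there are 28, 46 and 36, in the order of the sequences that follow, written 5′ to 3′.
Endov: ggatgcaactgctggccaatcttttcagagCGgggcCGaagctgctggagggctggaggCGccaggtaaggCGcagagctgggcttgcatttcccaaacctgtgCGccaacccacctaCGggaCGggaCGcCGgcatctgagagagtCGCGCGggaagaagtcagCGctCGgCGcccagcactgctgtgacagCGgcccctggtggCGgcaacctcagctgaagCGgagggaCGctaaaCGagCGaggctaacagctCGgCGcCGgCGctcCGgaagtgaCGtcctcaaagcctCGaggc
Dnmt3a: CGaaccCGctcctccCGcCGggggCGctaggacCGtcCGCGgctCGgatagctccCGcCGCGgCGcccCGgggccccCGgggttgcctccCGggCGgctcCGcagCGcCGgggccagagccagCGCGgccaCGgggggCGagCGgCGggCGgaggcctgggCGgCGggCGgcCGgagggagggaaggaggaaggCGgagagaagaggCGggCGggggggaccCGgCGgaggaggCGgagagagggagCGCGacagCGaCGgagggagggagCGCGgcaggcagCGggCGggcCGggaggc
Camkk1: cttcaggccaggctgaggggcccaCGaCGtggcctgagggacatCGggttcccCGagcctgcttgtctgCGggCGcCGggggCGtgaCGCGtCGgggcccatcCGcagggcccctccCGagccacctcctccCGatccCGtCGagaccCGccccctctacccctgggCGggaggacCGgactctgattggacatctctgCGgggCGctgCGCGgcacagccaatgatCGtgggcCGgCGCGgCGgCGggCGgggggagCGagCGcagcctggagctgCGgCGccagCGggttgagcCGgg

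Most of the 4362 loci had no measured level in these neurons, with 3516 of them (80.6%) listed at 0 FPKM in both groups. Lengths ran from 22 bases to 720.858 kb with a median of 50 bases, and all 1829 loci of at most 40 bases were at 0. Among loci under 200 bases 98.2% were at 0 in both groups, against 47.7% of the longer ones. Of the 846 above 0, the authors tested 454, which is 10.4% of the unnamed loci, against 61.2% of named loci. The 392 loci above 0 that were not tested reached at most 0.337 FPKM. The tested ones had a median of 2.64 FPKM over both groups, lower than the 8.14 FPKM of tested named loci, and 127 of them reached 10 FPKM. Several entries can share 1 locus: 258 of the 4362 did so with another unnamed entry, and 4137 distinct loci remain when each is counted once.

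Of the 454 tested loci, 104 (22.9%) were called, 76 higher and 28 lower in Nd1, in the authors' deposited table. Over all 14841 tested loci the authors called 34.4%, with 15.1% higher and 19.2% lower. The share of unnamed loci that rose (16.7%) was near that background, while the share that fell (6.17%) was below it. Odorant receptors, of which 88.1% fell, made up 915 of the 2828 named falls. Without these, named loci still had 16.2% higher and 14.4% lower. Rises made up 73.1% of the calls among unnamed loci and 53% of those among named loci without odorant receptors. The 76 rises include 7 near-identical entries of 1 repeat on chromosome 2. Without repeated or shared loci, 67 of 439 tested unnamed loci rose (15.3%) and 26 fell (5.92%). Of the 48 tested unnamed loci that overlap a named one, 6 rose and 0 fell in the authors' Cuffdiff q-values. The differences between these shares were not tested, since loci are not replicates of a condition.

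The share called varied with the level. Of tested unnamed loci with a mean under 0.5 FPKM, 16% were called, against 30.8% of named loci of that level without odorant receptors. From 0.5 to 2 FPKM it was 18.8% against 36.3%, and from 2 to 10 FPKM 26.1% against 29.7%. From 10 to 50 FPKM the unnamed loci had the higher share, 31.8% against 26.7%. That level holds 7 near-identical entries of 1 repeat on chromosome 2, all risen, which cannot be counted as separate observations. The higher share at this level is therefore uncertain. At 50 FPKM or more it was 20.5% of 39 unnamed loci against 39.8%. Rises led falls among the unnamed loci at each level up to 50 FPKM, and above it 4 rose and 4 fell. Length went with the calls as well: 0 of 51 tested loci under 200 bases were called in the authors' Cuffdiff table, and 0 had an unadjusted p under 0.05, against 44 of 142 loci of 1000 to 5000 bases (31%).

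**Figure D1:**
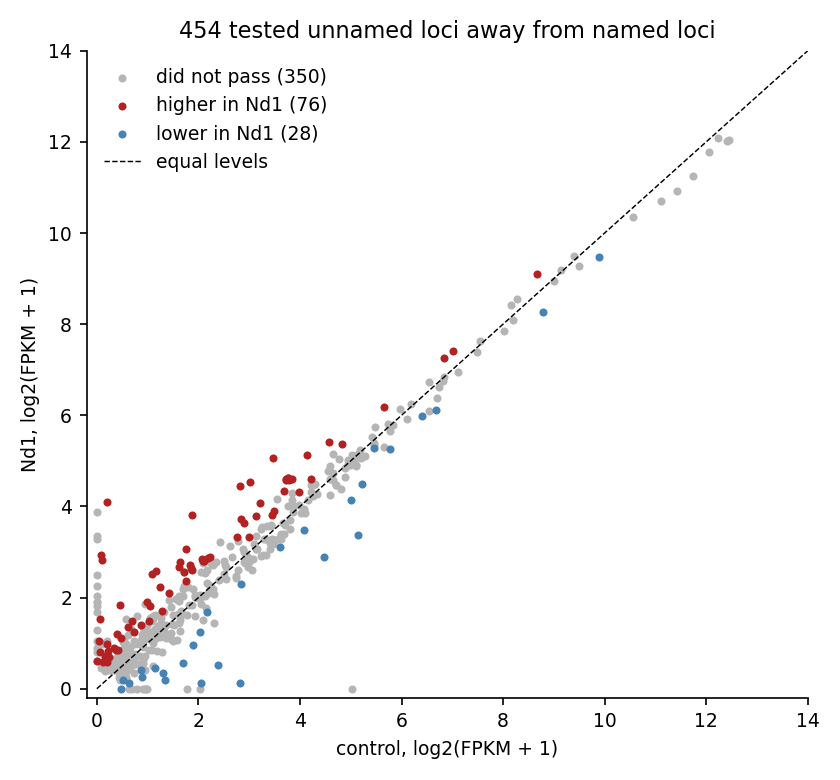
FPKM in control (horizontal) against Nd1 (vertical), each as log2(FPKM + 1), for the 454 tested unnamed loci. Each point is 1 locus with the authors' single value per group, coloured by call, and the dashed line marks equal levels. The 76 rises spread from low to high levels, the 28 falls are fewer, and points on an axis are loci listed at 0 in a group.

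In the 379 tested loci whose mean reached 0.5 FPKM, the median of log2((Nd1 + 1)/(control + 1)) was 0.0777, with quartiles at -0.16 and 0.45. The same median was -0.0629 over named loci and -1.73 over odorant receptors. The median of the unnamed loci moved to 0.1968 after quantile normalization, under which that of named loci moved to 0.0013. At 1 kb or more from a named locus the median of the unnamed loci was 0.0249. Of the calls, 40 rises and 16 falls were at least 2-fold, together 12.3% of the tested unnamed loci (8.81% higher and 3.52% lower), against 16.5% of all tested loci (7.09% higher and 9.39% lower).

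By distance to the nearest named locus, the balance of rises and falls varied as follows. Under 1 kb, 25 of 127 tested loci rose (19.7%) and 4 fell, where 15.1% of all tested loci rose and 19.2% fell. At 1 to 5 kb 14 of 70 rose and 3 fell, and at 5 to 20 kb 9 of 78 rose and 5 fell. At 20 to 100 kb 24 of 122 rose and 9 fell, and at 100 kb or more 4 of 46 rose and 4 fell. The rises at 20 to 100 kb include all but the nearest of 7 near-identical repeat entries on chromosome 2. These are not separate observations, and they add to the share called at that distance. The share called in either direction ran between 17.4% and 27% over these distances with no order, while rises outnumbered falls most under 1 kb. The median log2 ratio on the scale with 1 added was 0.27 under 1 kb, 0.14 at 1 to 5 kb, 0.04 at 5 to 20 kb, -0.05 at 20 to 100 kb and 0.03 beyond. Risen loci lay a median of 4.65 kb from a named locus, and fallen ones 20.2 kb.

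**Figure D2:**
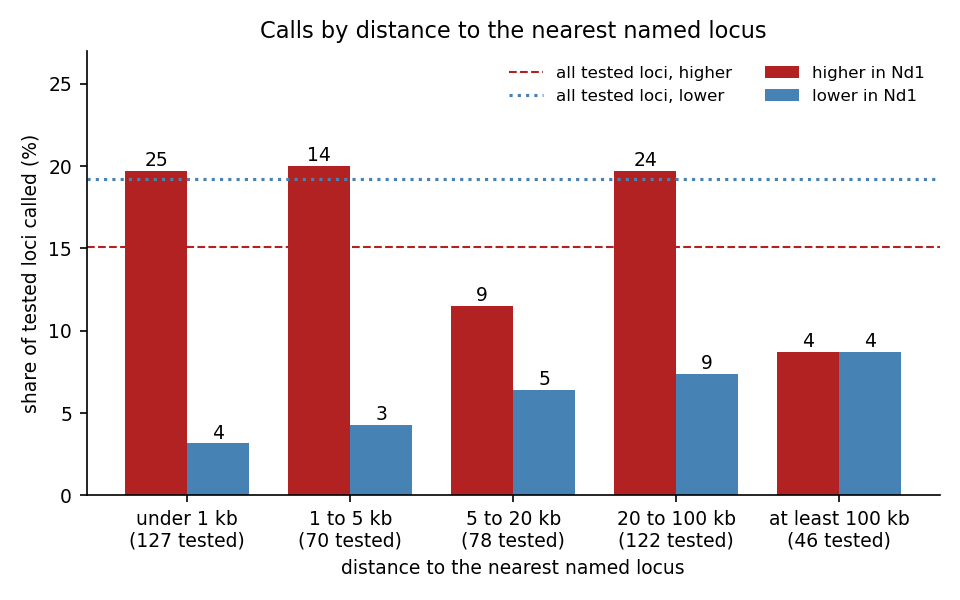
Share of tested unnamed loci called higher (red) or lower (blue) in Nd1, by distance to the nearest named locus. Numbers on the bars are counts of loci, and the dashed and dotted lines mark the 15.1% higher and 19.2% lower over all tested loci. The blue bars lie under the dotted line at every distance, and the 11 loci of chromosome M, which has no named locus, are left out.

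On the upstream side under 1 kb, 19 of 101 tested loci rose (18.8%) and 2 fell, and the median ratio was 0.24. Over all tested loci 15.1% rose and 19.2% fell, and no difference from these shares was tested. The gap of the upstream loci to the gene was a median of 164 bases. Only 6 tested loci lay downstream under 1 kb, too few to compare, and 1 of them rose and 1 fell. At 1 to 5 kb, 8 of 34 upstream loci rose (23.5%) and 0 fell in the authors' Cuffdiff q-values, while 4 of 27 downstream loci rose (14.8%) and 3 fell.

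Of the genes beside the risen upstream loci, some were called higher, some lower and the others neither. For 5 of the 19 risen upstream loci the gene was called higher, for 4 it was called lower (3 genes, since 2 of the 4 are entries on 1 locus upstream of Endov), and for the others it did not pass or was not tested. Over all 14841 tested loci 15.1% were called higher and 19.2% lower. Among risen named loci other than odorant receptors, 452 had their nearest separate named locus under 1 kb away, on either side. That neighbour was called higher for 108 of them and lower for 28. No difference between these shares was tested. The locus 163 bases upstream of Cntn4, at chromosome 6, 105624749 to 105627575, had 2.67 FPKM in control and 13.0 FPKM in Nd1. The authors' deposited table gives it a log2 fold change of 2.29 with q = 2.12e-12. Cntn4, a contactin adhesion molecule of neurons, moved the other way from 321 to 165 FPKM. The locus 987 bases upstream of Marcks, a membrane protein that binds actin and calmodulin, had 0.170 FPKM in control and 0.772 FPKM in Nd1. Marcks itself rose from 5.75 to 25.7 FPKM, by nearly the same factor. Upstream of Endov, 2 entries on 1 locus (chromosome 11, 119322515 to 119352549) rose, 1 from 10.1 to 32.5 FPKM and the other from 3.30 to 6.01 FPKM, while Endov fell from 6.82 to 5.78 FPKM. A further unnamed locus on the far side of that one, at chromosome 11, 119287376 to 119291618, rose from 7.06 to 22.1 FPKM. The Dnmt3a and Camkk1 entries, at 30.2 and 32.1 FPKM and at 1.37 and 1.36 FPKM in control and Nd1, did not pass.

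The 2 upstream falls lay at genes of low level. At chromosome 10, 119638668 to 119640271, 74 bases upstream of Irak3 (a negative regulator of interleukin-1 and Toll-like receptor signalling), the unnamed locus fell from 1.46 to 0.280 FPKM. Irak3 fell with it, from 0.931 to 0.285 FPKM. At chromosome 8, 72411687 to 72414784, 395 bases upstream of Cilp2, the unnamed locus fell from 2.72 to 0.958 FPKM. Cilp2 had 0.0811 and 0.0590 FPKM and was not tested.

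**Figure D3:**
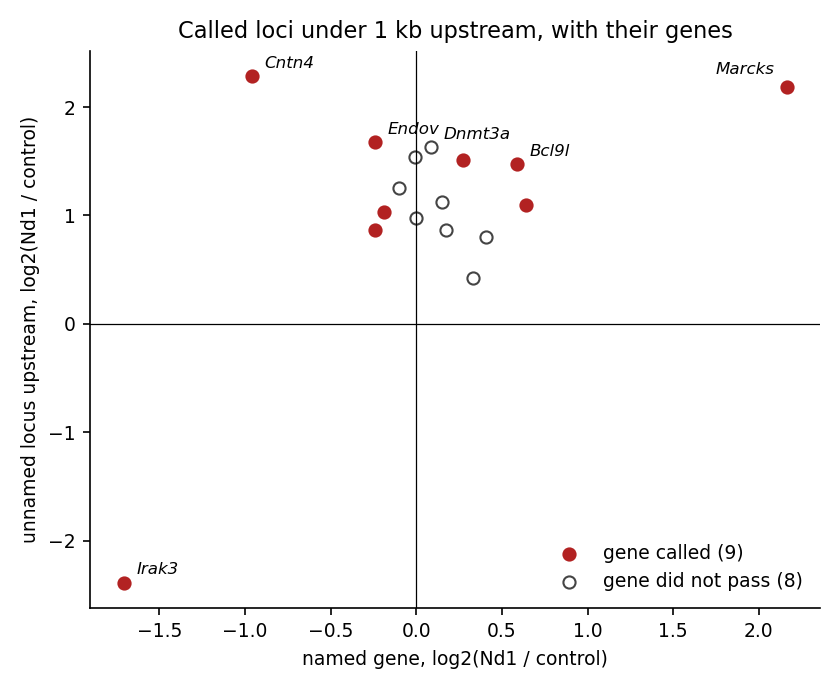
Log2 of Nd1 over control for the named gene (horizontal) and for the called unnamed locus under 1 kb upstream of it (vertical), from the authors' table. The 17 points are pairs whose gene was tested and above 0 in both groups, filled where the gene was called (9) and open where it did not pass (8). Most points lie above 0 vertically and close to 0 horizontally, and Marcks, Cntn4 and Irak3 lie far from the vertical axis.

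Downstream of genes, falls went with the gene. All 3 unnamed loci that fell at 1 to 5 kb downstream lay next to a gene that fell. Near Slc24a4, a sodium, calcium and potassium exchanger that shapes the odor response, the unnamed locus 3.299 kb downstream fell from 102 to 68.7 FPKM. Slc24a4 fell from 85.4 to 60.9 FPKM. Near Eif2c3, an Argonaute gene now called Ago3, the locus 2.51 kb downstream fell from 11.1 to 7.67 FPKM, and the gene from 9.85 to 7.28 FPKM. The third lay 1.075 kb downstream of Lman2l, a lectin of the secretory pathway, and fell from 53.9 to 37.5 FPKM, with Lman2l at 186 and 173 FPKM. In these 3 pairs the unnamed locus and the gene had levels in the same range or the gene was higher, and whether they are 1 transcript was not tested.

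Over all distances, 101 called unnamed loci had a named neighbour on their chromosome. The neighbour was called in the same direction for 33 of them (32.7%), in the opposite direction for 6, did not pass for 48 and was not tested for 14. By direction, 16 of 25 falls (64%) and 17 of 76 rises (22.4%) had a neighbour called the same way. Some neighbours are counted more than once in these shares. The 7 repeat entries on chromosome 2 share Zswim2, and 3 falls on the unplaced part of chromosome 17 share Tagap, and neither gene passed. Of the falls, 4 lay nearest to an odorant receptor, and without them 12 of 21 falls (57.1%) had a neighbour called the same way. Among called named loci, odorant receptors left out, the nearest named locus was called the same way for 18.5%, with 18.8% for rises and 18.1% for falls. These shares differ in size, and the difference was not tested.

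The 3 largest rises lay side by side on chromosome 14, in a stretch of 192.13 kb between Pde12 and Asb14. The locus at 27512760 to 27543988 had 0.143 FPKM in control and 16.0 FPKM in Nd1, for which the authors' deposited table lists a log2 fold change of 6.81 and q as 0. The locus at 27584215 to 27586944 had 0.0656 and 6.59 FPKM (log2 fold change 6.65, q = 0.00418 in the authors' deposited table). The locus at 27685519 to 27704889 had 0.0761 and 6.10 FPKM (log2 fold change 6.33, q = 2.57e-11 in the authors' deposited table). All 3 were near 0 in control and 80.2 to 112 times higher in Nd1.

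The named genes on both sides of this stretch showed no such rise. Pde12, a mitochondrial phosphodiesterase, ends 23.427 kb before it and had 12.1 FPKM in control and 10.9 FPKM in Nd1. Asb14 begins 2.9 kb after it and had 1.47 and 1.58 FPKM. Arf4, a small GTPase of membrane traffic, had 45.5 and 49.2 FPKM, and Appl1, an endosomal adaptor, had 30.9 and 34.8 FPKM. These 4 genes did not pass. Around the stretch 2 entries did: a second entry on the Fam116a locus rose from 0.164 to 1.25 FPKM (q = 0.0308 in the authors' deposited table), and Arhgef3 rose slightly from 45.6 to 49.2 FPKM. The main Fam116a entry, at 8.53 and 8.31 FPKM, did not pass.

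**Figure D4:**
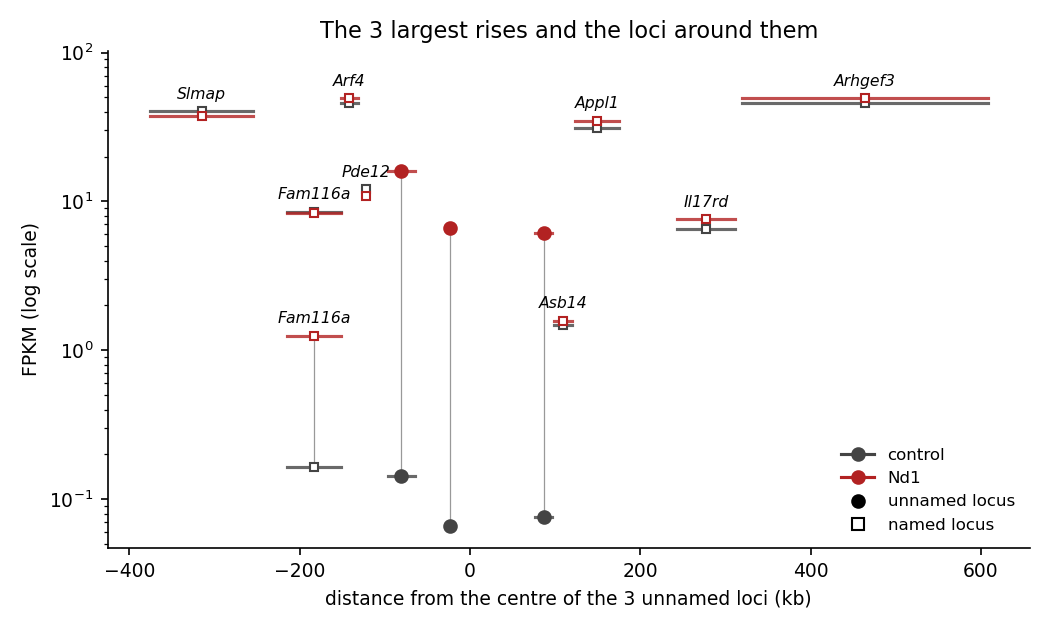
FPKM (log axis) in control (grey) and Nd1 (red) of tested loci around the 3 largest rises, against distance in kb from the centre of the 3 unnamed loci. Filled circles are unnamed loci, open squares are named loci, and horizontal bars give each locus's extent. The 3 unnamed loci go from 0.0656 to 0.143 FPKM in control to 6.10 to 16.0 FPKM in Nd1, while the flanking named loci nearly coincide except the second Fam116a entry.

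The next rises also began near 0. At chromosome 13, 47081816 to 47104082, the level went from 0.0392 to 1.89 FPKM, 3.843 kb from Nhlrc1, a ubiquitin ligase gene that did not pass at 2.44 and 3.22 FPKM. Beyond Nhlrc1 lies Tpmt, a thiopurine methyltransferase gene, which did not pass at 0.0608 and 0.396 FPKM. Kdm1b, a histone demethylase gene that follows Tpmt, rose from 0.443 to 2.70 FPKM. At chromosome 12, 72678952 to 72687808, the level went from 0.0278 to 1.07 FPKM, 244.256 kb from Daam1, a formin of Wnt signalling, which rose from 13.1 to 18.2 FPKM. Another unnamed locus there, at 72456428 to 72599698, rose from 0.120 to 0.617 FPKM, and Dact1, a Wnt signalling adaptor, rose from 3.23 to 8.10 FPKM. In this chromosome 12 stretch unnamed and named loci rose together. On chromosome 13, Kif13a, a kinesin gene, fell from 38.7 to 31.2 FPKM.

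The other 4 of the 10 largest rises started from measurable levels. At chromosome 15, 36306307 to 36319927, the level rose from 0.377 to 2.55 FPKM, and at chromosome 13, 35635772 to 35637353, from 1.11 to 4.69 FPKM. At chromosome 18, 34911463 to 34918339, it rose from 1.23 to 5.03 FPKM, 220 bases from Fam53c, for which the authors' test failed. At chromosome 8, 109729221 to 109736351, it rose from 0.324 to 1.30 FPKM. With the Cntn4 locus, these complete the 10. Of their nearest named loci, Ankrd46 and Cyb5b did not pass, and Cdyl, a chromodomain corepressor, rose from 10.5 to 15.4 FPKM.

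Among the falls, 3 of the 4 largest lay in an odorant receptor cluster on chromosome 17, between Olfr103 and Olfr107. The locus at 37499053 to 37500032 had 6.04 FPKM in control and 0.0976 FPKM in Nd1, for which the authors' deposited table lists a log2 fold change of -5.95 and q = 2.06e-07. The locus at 37531475 to 37532455 had 3.13 and 0.0943 FPKM (log2 fold change -5.06, q = 7.91e-06 in the authors' deposited table). The locus at 37519452 to 37520431 had 4.23 and 0.427 FPKM (log2 fold change -3.31, q = 1.46e-09 in the authors' deposited table). The 3 are 980, 981 and 980 bases long, close to the lengths of the named receptors beside them, of which Olfr103 has 942 bases and Olfr107 has 1033. Olfr103 fell from 1.15 to 0.125 FPKM and Olfr107 from 11.7 to 1.33 FPKM. A further tested unnamed locus had an odorant receptor as its nearest named locus, and it fell too, so that all 4 did.

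**Figure D5:**
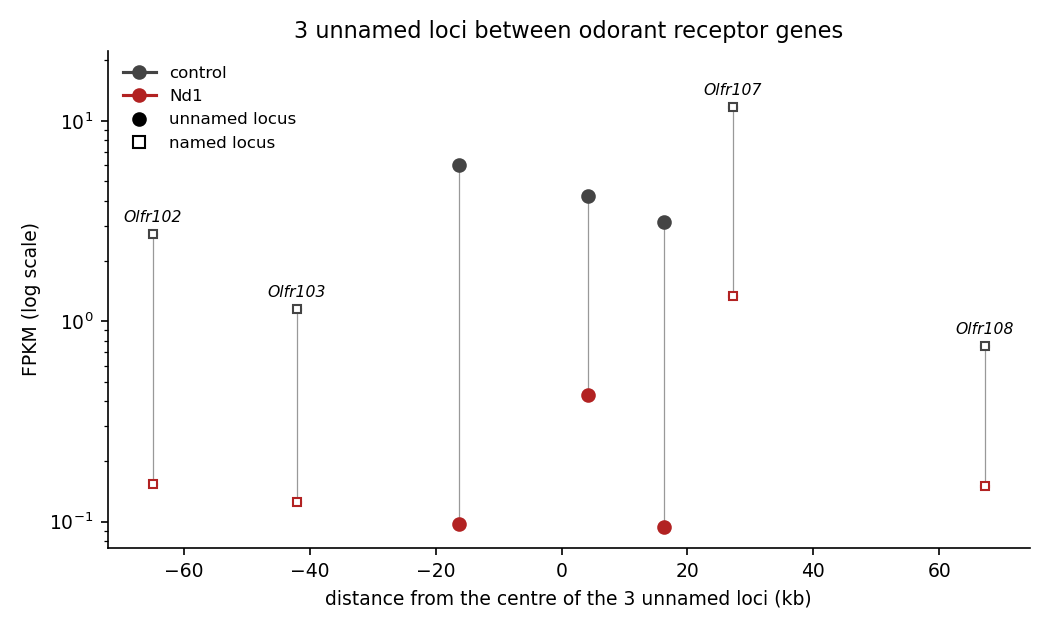
FPKM (log axis) in control (grey) and Nd1 (red) of the 3 unnamed loci (filled circles) and the odorant receptor genes next to them (open squares), against distance in kb from the centre of the 3. All 7 loci lie lower in Nd1, with the unnamed ones going from 3.13 to 6.04 FPKM in control to 0.0943 to 0.427 FPKM in Nd1.

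A second group of falls lay on the unplaced part of chromosome 17. Of 4 neighbouring unnamed loci there 3 fell: 141190 to 179483 from 1.54 to 0.138 FPKM, 193045 to 196078 from 2.22 to 0.482 FPKM, and 200727 to 207102 from 0.555 to 0.0911 FPKM. The one between them, at 183658 to 184189, was listed at 0.876 FPKM in control and at 0 in Nd1 and did not pass (q = 0.150 in the authors' deposited table). Tagap, a GTPase activator of T cells and the nearest named locus, stood at 2.70 and 2.77 FPKM and did not pass. All 4 were thus lower in Nd1 and the named neighbour was at the same level in both groups. This part of the assembly is not placed, and its position relative to the receptor cluster is not known here.

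The falls farthest from any named gene were on chromosome 2. The locus at 106066611 to 106176298, 185.827 kb from Dnajc24, fell from 34.3 to 9.39 FPKM (log2 fold change -1.87 in the authors' deposited table). The locus at 106223837 to 106246308, 287.307 kb from Mpped2, fell from 21.2 to 6.41 FPKM (log2 fold change -1.73 in the authors' deposited table). Both had q listed as 0 there, and in control they were expressed above the tested named median. On the side toward Mpped2 the direction changed: an unnamed locus at 106483078 to 106490521 rose from 0.150 to 0.960 FPKM, and Mpped2, a metallophosphoesterase, rose from 4.40 to 9.41 FPKM. Dnajc24 stood at 9.83 and 14.4 FPKM and did not pass. The last of the 10 largest falls, at chromosome 8, 96008501 to 96016056, went from 1.22 to 0.361 FPKM, 22.038 kb from Ces5a, which was not tested.

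A fall outside the 10 lay near Lhx2, a LIM homeobox factor required for olfactory sensory neuron development, and was chosen after its values were seen. The unnamed locus at chromosome 2, 38279522 to 38311369, fell from 36.3 to 21.6 FPKM. Lhx2, 54.273 kb away, fell from 227 to 172 FPKM. A rise chosen in the same way, at chromosome 12, 107138051 to 107140231, went from 6.07 to 21.0 FPKM, 60.897 kb from Papola, a poly(A) polymerase gene that did not pass at 57.6 and 54.0 FPKM.

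Chromosome 2 had the most calls, 19 of 43 tested loci (44.2%), where 29.9% of named loci other than odorant receptors were called, and 7 of the 19 are 1 repeated pattern. At 83795613 to 83833782 lie 7 entries of 3310 bases each, spaced exactly 5810 bases apart. Their levels were 12.3 to 12.8 FPKM in control and 22.7 to 23.7 FPKM in Nd1. All 7 rose, with log2 fold changes from 0.85 to 0.92 in the authors' deposited table. The values differ so little that the 7 entries cannot be counted as separate observations, and how reads matching several copies were shared among them is not given in the sources used here. Zswim2, 14.229 kb before them, did not pass at 1.59 and 1.60 FPKM.

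On chromosome 5, 3 neighbouring unnamed loci rose by less. That at 123592202 to 123599990 rose from 9.91 to 13.0 FPKM, that at 123602627 to 123611138 from 14.7 to 18.9 FPKM and that at 123611760 to 123617421 from 17.7 to 23.3 FPKM. On their left, Tmem120b (a membrane protein gene of adipocyte differentiation) fell from 11.6 to 5.94 FPKM, and on their right Hpd, of tyrosine breakdown, was at 0 in both groups. A further unnamed locus on this chromosome, at 123721604 to 123776803, rose from 16.6 to 33.9 FPKM, 17.653 kb from Bcl7a, a chromatin remodelling subunit gene that did not pass at 85.8 and 87.9 FPKM. Elsewhere, chromosome 12 had 8 calls of 16 tested loci (50%), where 30.8% of named loci other than odorant receptors were called. Chromosome 11 had 8 of 26 (30.8%), near its 32.6% of named loci, and chromosome 9 had 1 of 16 (6.25%), with 31.6% of its named loci called. No locus of chromosome Y was tested.

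The highest levels belonged to the mitochondrial genome, which had 11 unnamed entries and no named locus. Of the 5 highest, 4 were there, at 7766 to 8607 (5554 FPKM in control and 4200 FPKM in Nd1), 5327 to 6938 (4843 and 4375 FPKM), 7010 to 7699 (4277 and 3513 FPKM) and 11720 to 15288 (3409 and 2438 FPKM). These 4 did not pass. The authors' log2 fold change was below 0 in all 11 entries, from -0.51 to -0.12 with a median of -0.40, but under quantile normalization the entries at 5327 to 6938 and 11720 to 15288 turned to 0.15 and 0.29 on the scale with 1 added. In all, 3 entries fell: 70 to 852 from 83.3 to 62.2 FPKM, a second entry on 9203 to 11542 from 441 to 309 FPKM, and a second entry on 11720 to 15288 from 948 to 705 FPKM. The mitochondrial entries made up 65.2% of the FPKM sum of all 4362 loci in control and 61.2% in Nd1, which is a sum of levels per length and not a share of reads. That sum was 39935 FPKM in control and 33568 FPKM in Nd1, and without chromosome M 13911 and 13031 FPKM. The sum over all loci was lower in Nd1 too, with 391743 FPKM in control and 357895 FPKM in Nd1. Over loci with a symbol it was 351556 and 324061 FPKM.

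The other of the 5 highest lay on chromosome 1, at 24620810 to 24621651, with 5435 FPKM in control and 4133 FPKM in Nd1, and did not pass. It is 842 bases long, exactly as long as the mitochondrial entry at 7766 to 8607, and its values lie close to those of that entry. Whether the sequences match could not be read here, so the level of the chromosome 1 locus is uncertain.

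No locus listed at 0 in one group and at 1 FPKM or more in the other was called. There were 12 at 0 in control and 3 at 0 in Nd1, and 0 of the 15 had an unadjusted Cuffdiff p under 0.05. The highest, at chromosome 6, 58051721 to 58051773, was listed at 31.6 FPKM in control and at 0 in Nd1 (q = 0.124 in the authors' deposited table). At chromosome 6, 128134708 to 128134758, it was 0 in control and 13.8 FPKM in Nd1 (q = 0.336 in the authors' deposited table). These 2 loci are 53 and 51 bases long. The other 6 named by the rule were on chromosome 5, 52 to 72 bases long, and had 2.40 to 9.20 FPKM in the group above 0. There were 2 called loci at 0 in a group, both under 1 FPKM. Of these, that at chromosome 2, 124957293 to 124962355, 72 bases upstream of Ctxn2 (a cortexin gene), was listed at 0 in control and at 0.530 FPKM in Nd1, and Ctxn2 was listed at 0 and 0.575 FPKM and also called.

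Marker genes moved between the groups beside these results. Of 9 mature neuron markers 7 were tested and 6 fell, with a summed level of 13025 FPKM in control and 5004 FPKM in Nd1. That sum includes Omp, the locus of the tTA driver, at 4087 FPKM in control and 605 FPKM in Nd1. It also includes Gnal and Ric8b, for which the authors' test failed. All 5 immature neuron markers rose, from 113 to 270 FPKM. All 5 neutrophil markers fell, from 28.2 to 5.06 FPKM, and 3 of 3 tested basal markers fell, from 12.2 to 6.20 FPKM. The 5 sustentacular markers summed to 69.5 and 56.9 FPKM, with 2 falls. The 1 tested endothelial marker rose, 1 of 2 tested markers of macrophages or other immune cells fell, and the 1 tested erythroid marker fell. In such pooled values fewer cells of a type and less RNA per cell cannot be told apart, and the part of these differences in the calls of unnamed loci was not tested.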

How the data were processed

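Mature olfactory sensory neurons were sorted from mouse olfactory epithelium and polyadenylated RNA was sequenced in 2 control and 2 Nd1 libraries, per the labels' protocols. Bowtie, Cuffdiff 1.3.0 and build mm9 stand in the submitters' processing notes; for the annotation, strand setting and library depths, no source used here gives any. The deposited table holds 1 FPKM value per group, computed by the authors, for 28168 loci. It also holds the authors' log2 fold change, their test statistic (a score), p-value and q-value, per the file headers. A fold change where a group is at 0 is a placeholder there and was read as missing. The number of columns with per-sample values left unused is 0.

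Because no values per library are held, the planned limma test was not run, and no SD, interval or test of a difference is given. An unnamed locus was kept where it shares no base with a locus that has a symbol, and distance is the number of bases between both loci. Starts are printed with 1 added. Medians use tested loci whose mean reaches 0.5 FPKM and a pseudocount of 1, so that low loci are understated. Gene strands were matched by symbol from GENCODE M21, and promoters by symbol from RefSeq GRCm38.p6, with no coordinates taken across builds. Promoters on chromosome 18, where Fam53c lies, were left out of the promoter counts and of those shown. The distance step was tested on simulated intervals. Python 3.11.15, pandas 2.3.3 and numpy 2.4.6 were used.

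Named loci follow a rule: the 10 largest rises and 10 largest falls among called loci of at least 1 FPKM, the 5 highest means, up to 5 in each direction listed at 0, the 3 called farthest away, and the runs (gaps of at most 20 kb) with the most calls, tied runs included. Called loci under 5 kb from a gene were named as examples after their values were seen. The loci and lists were chosen with earlier results of these data known.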

Additional observations from a re-analysis of the deposited data

How the results depend on the processing

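No paired analysis was possible because the table holds 1 value per group and none per library; for the same reason leaving out a replicate was not run. The count of 104 calls (76 higher, 28 lower) was 22.9% of the tested unnamed loci, against 34.4% of all tested loci. At 10 kb or more from a named locus it became 48 (34 and 14), which is 21.7% of the 221 tested loci that remain. It became 56 (40 and 16) when a 2-fold change was also required (12.3% of tested unnamed loci, against 16.5% of all tested loci). Under 9 other settings, 2 of them chosen after seeing the data (without chromosome M, and without shared or repeated loci), it stayed between 72 and 104. The share called then ran from 15.9% at q under 0.01, against 27.2% of all tested loci, to 25.8% without loci under 200 bases. The median log2 ratio of 0.0777 was 0.0981 with a pseudocount of 0.1, 0.0882 with none, 0.0779 over all tested loci, 0.0663 at 1 FPKM or more, 0.1968 after quantile normalization, 0.1342 with Nd1 scaled to a median of 0 over named loci, 0.0249 both at 1 kb and at 10 kb or more, and 0.0918 without chromosome M. For named loci the median moved from -0.0629 to 0.0013 after quantile normalization and to -0.0007 with Nd1 scaled. Neither scaling changed the sign of any of the 102 called loci above 0 in both groups. The scaling of Nd1 uses 1 constant factor, 0.952, and could turn only falls close to 0, so its unchanged signs are no support. The ratio of summed FPKM, 0.8406 in Nd1 over control, was 0.8542 without the highest locus, 0.9023 at 10 kb or more and 0.9368 without chromosome M. Over all loci this ratio was 0.914, and over loci with a symbol 0.922. Leaving out loci near odorant receptors moved the share called at 20 to 100 kb from 27% to 25.2% and at 5 to 20 kb from 17.9% to 16.9%. Library depth is unknown, so that the smallest difference a call could reach is unknown too.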
